A study of Mus musculus with 384 samples.

Results

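The Rab genes are a family of small GTPases that direct vesicle traffic. They were taken as every row of the deposited count table whose symbol is Rab followed by a number, with at most 1 further letter and digit, which gave 58 of 23481 genes. Of these, 57 had a count in at least 1 well, and Rab25 had none. The low-count filter kept 42 members among 10562 genes for testing, and 16 members were too sparse to test. Rab1 and Rab7l1 are older symbols of Rab1a and Rab29. All 58 members were located in the GENCODE annotation of mm10. Together they took 0.305% of all counts.

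Each Rab protein is a switch that is active when bound to GTP and inactive when bound to GDP. Exchange factors load GTP, GTPase-activating proteins trigger its hydrolysis, and lipid tails added by prenylation hold the protein on a membrane. The active form recruits effectors that move, tether or fuse vesicles of 1 compartment. In macrophages, members of this family guide secretion of cytokines, delivery of receptors to the cell surface, uptake of particles and maturation of phagosomes.

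The cells were macrophages grown from bone marrow of male C57BL/6 mice aged 13 weeks, either WT or Myd88 KO. Myd88 is an adaptor protein through which nearly all Toll-like receptors signal. All cells, WT and KO, had been transduced on day 4 with a pool of pathway reporter viruses and replated in wells on day 9, and 12 ligands were then followed for 0, 0.5, 1, 1.5, 2, 2.5, 3 and 4 h. Each genotype filled 2 plates of 96 wells, 384 wells in all, and the labels do not say whether plates of 1 genotype came from separate mice, so p-values measure the spread between plates. The ligands were Pam3Cys, R848, CpG, FLA, LPS, MDP, MDP/LPS, Zymosan, TDB, Poly(I:C), SeV and HT-DNA. Pam3Cys, R848 and CpG act on Toll-like receptors that signal through Myd88. There was no course of unstimulated wells, so a change shared by all ligands and the effect of time in the well cannot be told apart.

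Wells held 71720 to 767167 counts (median 342561). Counts were summed per plate, giving 148 sums: the 12 wells at time 0, and for each ligand an early sum (0.5 and 1 h), a middle sum (1.5 and 2 h) and a late sum (2.5, 3 and 4 h). A sum at time 0 was of 3167670 to 4901235 counts, and a late one of 314684 to 1876446, the shallowest being R848 on KO plate 2. Levels are given as CPM, the counts of a gene divided by the total of its sum and scaled to 1000000, from reads at transcript 3′ ends, so they are not divided by gene length. Myd88 itself stood at 46.0 and 47.7 CPM on the WT plates and at 15.1 and 18.2 CPM on the KO plates, and the labels do not say which part of the gene was deleted, so these 3′ reads check the deletion only in part. Nfkbia, an inhibitor of NF-kB that NF-kB itself induces, rose late with 11 of 12 ligands in WT and with 7 of 12 in KO. The 9 macrophage markers found in the table summed to 3319 to 4551 CPM at time 0 and late. Among the lists for other cell types, neutrophil genes ranged from 82.2 to 268 CPM and endothelial genes from 5.34 to 120 CPM. B cell, T cell, dendritic cell and mast cell lists stayed at or below 18.1 CPM and the fibroblast list at or below 51.9 CPM. Their part in the results was not tested.

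Before stimulation, Rab8b, Rab14, Rab1 and Rab6a had the highest levels of the family. Rab8b, which serves exocytic and recycling traffic, stood at 530 and 496 CPM on the WT plates and at 358 and 438 CPM on the KO plates. Rab14, of early endosomes and phagosomes, stood at 456 and 381 CPM in WT and at 452 and 444 CPM in KO. Rab1, which carries cargo from the endoplasmic reticulum to the Golgi, averaged 312 ± 17.5 CPM in WT and 313 ± 9.63 CPM in KO (SD, n = 2 plates). Rab6a, of retrograde Golgi traffic, averaged 274 ± 38.2 CPM in WT and 322 ± 59.9 CPM in KO. For Rab14, Rab1 and Rab6a the plates of the genotypes overlapped, and for Rab8b both KO plates lay below both WT plates, a difference that did not pass the test.

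By role, and over all wells, the 12 members of recycling and exocytic traffic summed to 1085 CPM and the 13 of the endoplasmic reticulum and Golgi to 962 CPM. The 8 of early endosomes summed to 678 CPM, led by Rab14. The 10 of late endosomes, lysosomes and phagosomes summed to 192 CPM, led by Rab32 with 75.5 CPM. The 10 of regulated secretion summed to 94.3 CPM, led by Rab3d with 43.7 CPM, and the 5 others to 42.9 CPM, led by Rab28 with 22.6 CPM. Of the late endosomal and secretory members, Rab32, Rab9 and Rab3d took most of the counts. Rab7, the classical late endosome member, had 876 counts in all (6.70 CPM), and another gene, Gm5577, overlaps the last 500 bases of its 3′ end.

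At time 0, 0 of 42 members passed between genotypes at an adjusted p under 0.05 in edgeR's quasi-likelihood test, against 0.275% of all genes tested. Not passing does not show that levels were equal. An unadjusted p under 0.05 was met by 1 member. That member was Rab10, which is described below. DESeq2 also called 0 of 42.

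**Figure D1:**
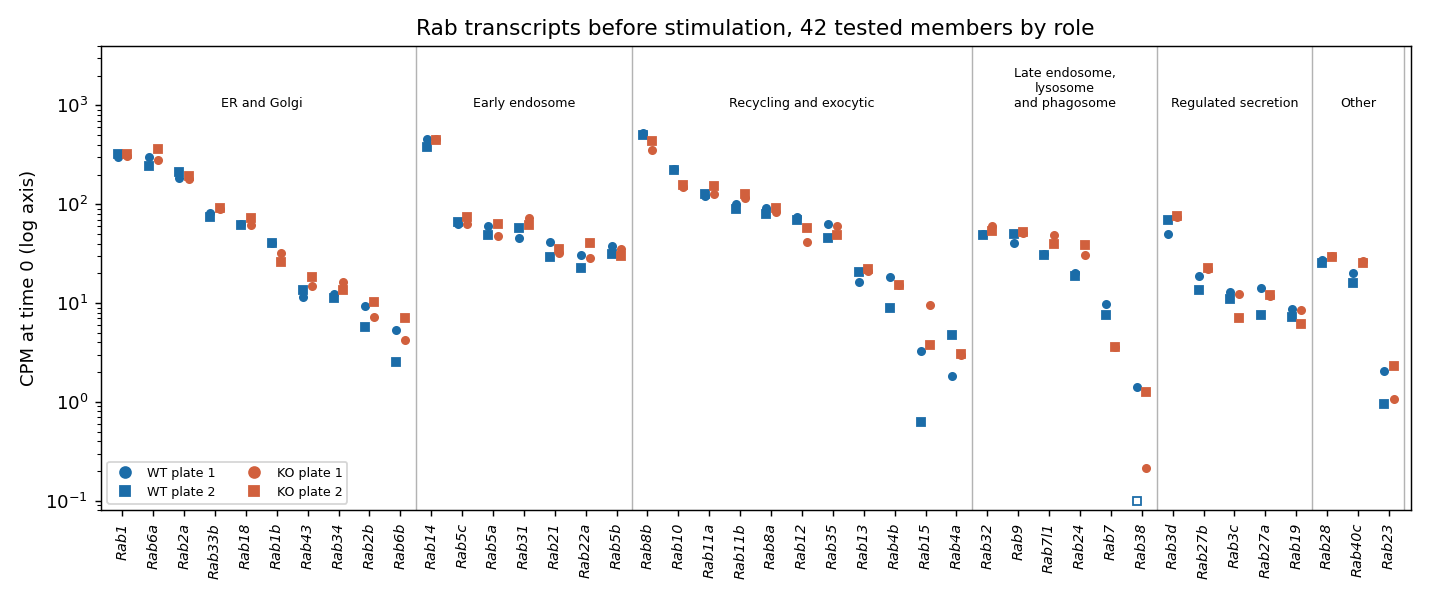
Levels of the 42 tested Rab genes at time 0 in CPM on a log axis, grouped by role, with 1 point per plate (blue WT, orange KO); an open symbol at the foot of the axis marks a value of 0. Rab8b, Rab14, Rab1 and Rab6a lie highest on all 4 plates, Rab38 has the lowest mean in both genotypes, and the Rab10 points of KO (150 and 157 CPM) sit below those of WT (228 and 220 CPM).

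The 16 untested members had at most 181 counts (Rab42), and the lowest member tested had 153 (Rab38). Rab20, a phagosome member known to be induced in activated macrophages, had 64 counts in 29 wells. None fell at time 0, where 0 of 16701736 counts allows up to 0.180 CPM. Late, Rab20 had 12 counts in WT and 11 in KO, 9 of the latter with LPS. At this depth its response could not be followed.

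Late after stimulation, few members passed the test against time 0, and not passing does not show that a member did not move. In WT, 4 of 42 members passed against time 0 with at least 1 ligand, where 10.3% of all genes tested did, so the share in the family was near that of all genes. Rab10, Rab12 and Rab32 rose (6.94% of all genes rose with at least 1 ligand) and Rab40c fell (3.39% of all genes fell). In KO, 2 members passed against 10.9% of all genes: Rab9 rose (6.29% of all genes rose) and Rab3d fell (4.59% fell). With plate fitted as a replicate block, 6 members passed in KO, the other 4 being Rab10, Rab14, Rab32 and Rab8b. The share of all genes called in that fit is not given here.

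By ligand in WT, 2 members passed with Pam3Cys (2.68% of all genes), 2 with R848 (2.74%), 2 with CpG (2.09%) and 1 with FLA (0.663%). There were 2 with LPS (6.3%), 2 with MDP/LPS (6%), 3 with Zymosan (4.71%) and 2 with Poly(I:C) (5.14%). No member passed with SeV, TDB, MDP or HT-DNA in WT. The calls rest on both WT plates: with either WT plate left out, 0 and 0 members passed, the lone plate being assumed to vary like the other groups. With either KO plate left out, more members passed in WT than in the full fit. The share of all genes called in those fits is not given here, so this is not read as a result about the family.

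**Figure D2:**
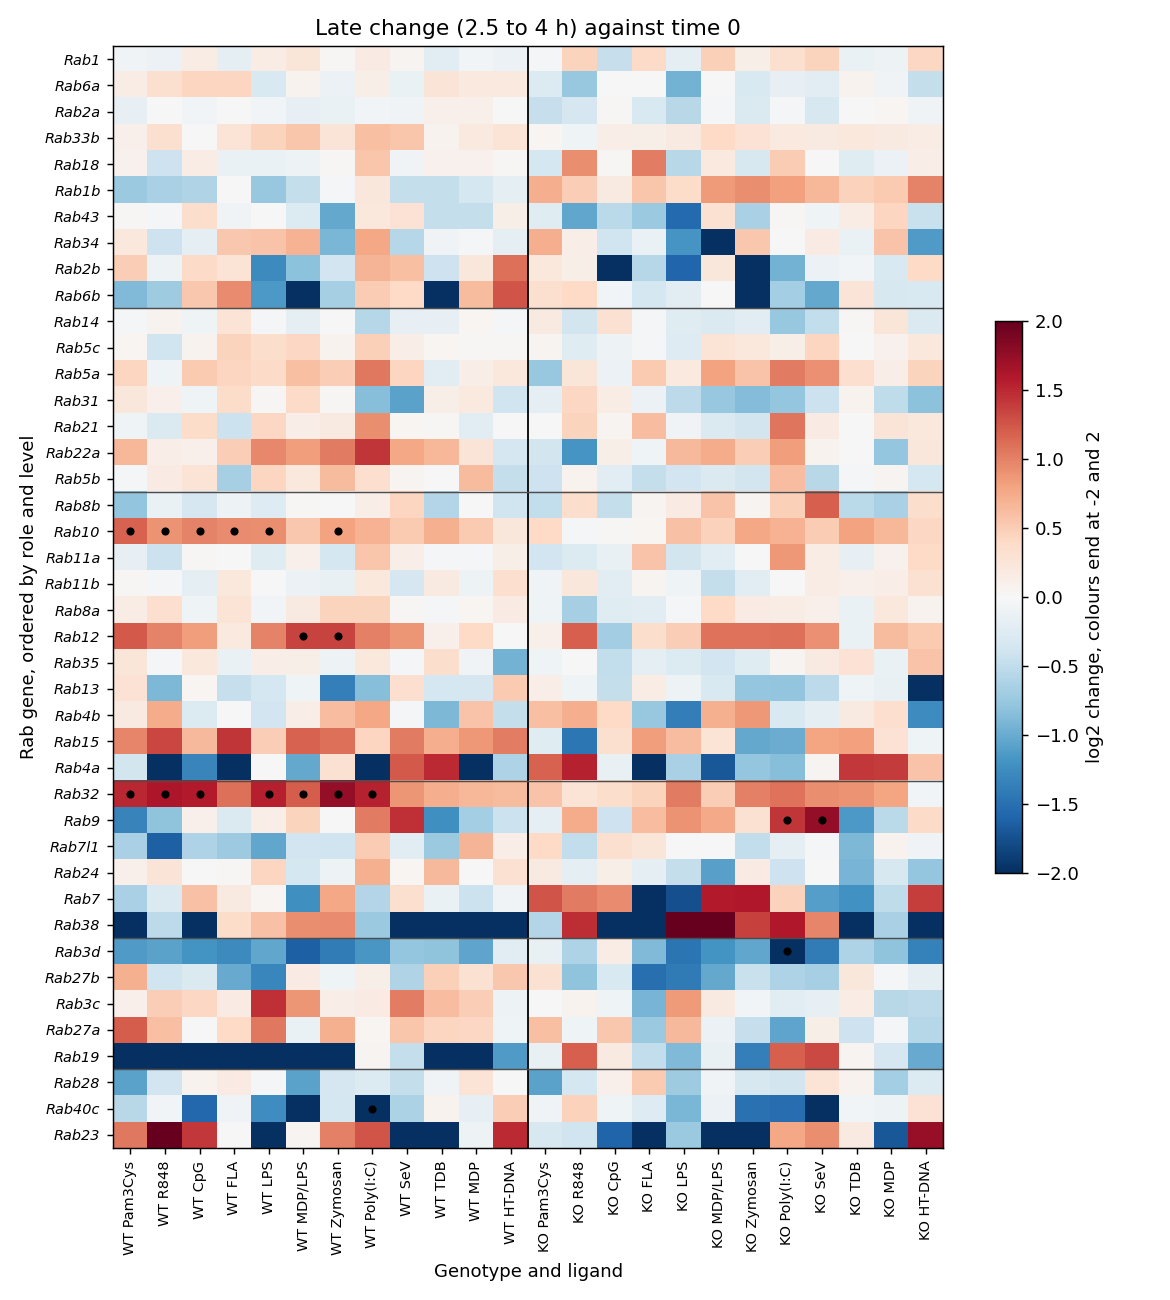
Log2 change of each tested Rab gene from time 0 to the late sum, for 12 ligands in WT (left) and KO (right), with rows ordered by role and level; red is higher, blue lower, colours end at -2 and 2, and a black dot marks an adjusted p under 0.05. Rab32, Rab10 and Rab12 form red bands in WT, Rab3d a blue band in both genotypes, and Rab9 is red with Poly(I:C) and SeV. Rab38, Rab23 and Rab4a, in deep colours of both kinds, are genes of few counts.

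The median late change over the 12 ligands lay within 0.5 of 0 on the log2 scale for 31 of 42 members in WT (73.8%, against 69.8% of all genes) and for 35 of 42 in KO (83.3%, against 75.0%). The median SE of a member's late change was 0.549 in WT and 0.553 in KO, larger than 0.5. The 12 changes of a genotype share its time 0 sums. In WT the members above that band were Rab10, Rab12, Rab15, Rab22a, Rab23 and Rab32, and those below it were Rab19, Rab38, Rab3d, Rab4a and Rab7l1. In KO they were Rab12, Rab1b, Rab32 and Rab7 (mean SE 1.35) above, and Rab23, Rab27b and Rab3d below. Rab15, Rab23, Rab38 and Rab4a are sparse, and none of these 4 passed a test in any planned comparison. Rab1, Rab2a and Rab11b had median changes of -0.02, -0.05 and -0.02 in WT and 0.22, -0.18 and 0.03 in KO. The medians of Rab1b were -0.48 in WT and 0.61 in KO.

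1 test per gene, that all 12 late groups and time 0 share 1 level, called 5 members in WT (11.1% of all genes) and 5 in KO (13.4%). In WT these were Rab9 (adjusted p = 7e-07), Rab32 (0.00211), Rab10 (0.00589), Rab19 (0.00595) and Rab12 (0.00794). In KO they were Rab9 (adjusted p = 7.53e-07), Rab8b (0.000613), Rab12 (0.00275), Rab10 (0.0257) and Rab14 (0.0330). Rab9 thus had the smallest p of the family in both genotypes.

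The promoters of the 4 members with the smallest p in this WT test are printed. Each is the RefSeq window of 300 bases on GRCm38.p6 (mm10), 5′ to 3′ on the strand of the gene. It runs from 250 bases before the start site used for the window to 50 after it. Gene positions given below are GENCODE spans, and those of Rab19 and Rab32 begin upstream of that start site. Capitals mark a match, on either strand, to 1 of 4 motifs: the NF-kB site, the interferon-stimulated response element (ISRE, a pair of GAAA runs 2 bases apart), the AP-1 site TGANTCA and the E-box CACGTG. Rab9 lies on the minus strand of chromosome X (window chrX:166479818-166480117), Rab32 on the minus strand of chromosome 10 (chr10:10558158-10558457), Rab10 on the minus strand of chromosome 12 (chr12:3309920-3310219) and Rab19 on the plus strand of chromosome 6 (chr6:39381103-39381402).
Rab9: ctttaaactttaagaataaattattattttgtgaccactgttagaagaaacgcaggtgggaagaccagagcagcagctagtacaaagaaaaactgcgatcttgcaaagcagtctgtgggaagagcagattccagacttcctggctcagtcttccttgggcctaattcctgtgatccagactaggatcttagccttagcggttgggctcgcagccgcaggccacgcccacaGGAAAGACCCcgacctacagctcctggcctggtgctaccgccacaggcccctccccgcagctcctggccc
Rab32: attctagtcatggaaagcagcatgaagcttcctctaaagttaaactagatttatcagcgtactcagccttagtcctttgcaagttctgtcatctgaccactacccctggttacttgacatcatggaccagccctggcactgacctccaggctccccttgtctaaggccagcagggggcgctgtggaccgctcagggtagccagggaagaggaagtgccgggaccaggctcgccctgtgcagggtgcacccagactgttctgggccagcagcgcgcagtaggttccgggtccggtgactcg
Rab10: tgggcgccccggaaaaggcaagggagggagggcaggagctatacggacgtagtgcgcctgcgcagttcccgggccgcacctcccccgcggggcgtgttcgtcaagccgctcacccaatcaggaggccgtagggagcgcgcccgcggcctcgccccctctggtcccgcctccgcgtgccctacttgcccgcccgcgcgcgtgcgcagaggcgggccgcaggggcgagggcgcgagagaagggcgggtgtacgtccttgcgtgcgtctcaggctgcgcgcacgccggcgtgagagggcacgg
Rab19: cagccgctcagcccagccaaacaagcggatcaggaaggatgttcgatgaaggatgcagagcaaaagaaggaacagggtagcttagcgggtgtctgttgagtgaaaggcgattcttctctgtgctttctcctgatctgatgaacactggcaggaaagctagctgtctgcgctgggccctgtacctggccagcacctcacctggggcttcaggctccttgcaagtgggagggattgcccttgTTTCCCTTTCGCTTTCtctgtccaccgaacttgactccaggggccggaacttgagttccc
The Rab19 window holds 2 ISRE matches that overlap, at bases 241 and 247 of the window, and the Rab9 window holds 1 NF-kB match at base 231. The Rab32 and Rab10 windows hold none of the 4 motifs, which says only that these letters are not in these windows. An ISRE match was present in 3.44% of 32851 promoters and in 1 of 60 promoters of the family, that of Rab19. An NF-kB match was present in 4.79% of all promoters and in 4 of 60 of the family (Rab15, Rab28, Rab34 and Rab9). AP-1 matches were present in 7.81% of all promoters and 3 of 60 here, and E-box matches in 7.15% and 6 of 60. The table held a promoter for 48 of the 58 members, 8 of them with more than 1. A match is a description of letters, not of binding.

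Rab32, which acts in biogenesis of lysosome-related organelles and in defence against bacteria inside phagosomes, was the family member that rose with the most ligands in WT. It lies at chr10:10545002-10558265. At time 0 it stood at 50.2 and 48.3 CPM on the WT plates, and with Zymosan it reached 144 and 138 CPM late. With R848 it reached 165 and 109 CPM. All 4 of these late values lay above both time 0 plates.

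With Pam3Cys, late Rab32 was 138 and 123 CPM in WT, and with Poly(I:C) 140 and 110 CPM. In log2 units the rises that passed were 1.76 with Zymosan (SE 0.39, adjusted p = 0.000627), 1.61 with R848, 1.58 with CpG, 1.55 with LPS, 1.54 with Poly(I:C), 1.50 with Pam3Cys and 1.22 with MDP/LPS. The changes with the other 5 ligands lay between 0.63 and 1.10 and did not pass. The call with MDP/LPS was lost without the filter on low counts (adjusted p = 0.0742). Over the mean of the 12 ligands the change was 1.23 (SE 0.31, adjusted p = 0.00566), and it did not pass without either WT plate (adjusted p up to 0.743).

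In KO, Rab32 stood at 60.3 and 53.6 CPM at time 0 and its late change was above 0 for 11 of 12 ligands, but none passed. The highest was 1.08 with Poly(I:C) (SE 0.38, adjusted p = 0.0568), where late plates stood at 117 and 100.1 CPM. With R848 the KO change was 0.28 (SE 0.40) on plates of 80.5 and 47.7 CPM. The test of the difference between genotypes gave -1.33 for R848 (SE 0.55, adjusted p = 0.550) and -1.23 for CpG (adjusted p = 0.762), so a difference in the Rab32 response was not shown. With plate as a replicate block, Rab32 was among the members called in KO.

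Rab10, which delivers receptors and transporters to the cell surface and carries Toll-like receptor 4 in macrophages, rose in WT with 6 of 12 ligands. It lies at chr12:3247428-3309969. Late Rab10 in WT was 477 and 471 CPM with Pam3Cys, against 228 and 220 CPM at time 0. With FLA it was 402 and 415 CPM, and with CpG 358 and 425 CPM. Every one of these plates lay above both time 0 plates.

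The rises of Rab10 that passed in WT were 1.17 on the log2 scale with Pam3Cys (SE 0.25, adjusted p = 0.000937), 0.99 with CpG, 0.95 with FLA, 0.92 with LPS, 0.90 with R848 and 0.80 with Zymosan. The mean over the 12 ligands was 0.75 (SE 0.20, adjusted p = 0.0117). Without the filter on low counts, the calls with CpG, FLA, LPS, R848 and Zymosan and that of the mean were lost, with size factors of DESeq2 those with FLA and Zymosan, and without Rn45s that with Zymosan. The antisense gene Rab10os overlaps the last 500 bases of Rab10, and since the use of strand in counting is not given, reads from the gene and its antisense partner cannot be told apart.

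In KO, Rab10 stood at 150 and 157 CPM at time 0, and at 151 and 155 CPM late with CpG. With R848 it stood at 181 and 102 CPM, and with FLA at 180 and 127 CPM. With TDB it stood at 250 and 278 CPM, above both KO plates at time 0. The late change of Rab10 in KO was above 0 with 11 of 12 ligands, with a median of 0.49 and a highest value of 0.80 with TDB (SE 0.25, adjusted p = 0.249), and none passed. With all 12 ligands, both KO plates lay below both WT plates late, a pattern met by 0.701% of all genes tested and by no other member of the family.

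Comparisons of the late level between genotypes were added after the data had been seen. They called 5 members with at least 1 ligand (Rab10, Rab12, Rab18, Rab19 and Rab9), against 12.3% of all genes. Rab10 was lower in KO by -1.55 with CpG (SE 0.26, adjusted p = 3.09e-06; 6.01% of all genes called), -1.50 with R848 (6.37%), -1.49 with FLA (4.04%), -1.35 with Pam3Cys (5.84%) and -0.92 with LPS (1.76%). The first 4 passed under all 12 alternatives tried, and that with LPS lost its call under 5 of them (adjusted p up to 0.875).

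At time 0 Rab10 already differed by -0.58 (SE 0.25, unadjusted p = 0.0231 in edgeR's fit), which did not pass after adjustment. The difference in its late change between genotypes was -0.97 with CpG (SE 0.36, adjusted p = 0.392), and pooled over Pam3Cys, R848 and CpG it was -0.89 (SE 0.29, adjusted p = 0.142). So a lower late level of Rab10 in KO passed with CpG, R848, FLA, Pam3Cys and LPS, in the added comparisons only. It did not pass with the other ligands or at time 0, and a weaker rise did not pass.

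Rab12, which sends recycling cargo such as the transferrin receptor to lysosomes, rose in WT with Zymosan and MDP/LPS. It lies at chr17:66494512-66519729. At time 0 it stood at 74.7 and 69.5 CPM in WT. With Zymosan it reached 154 and 157 CPM late (log2 change 1.36, SE 0.40, adjusted p = 0.0245), and with MDP/LPS 172 and 119 CPM (1.35, SE 0.40, adjusted p = 0.0197). Late plates of both ligands lay above time 0. With Pam3Cys it was 157 and 157 CPM, a change of 1.22 that did not pass (adjusted p = 0.0778).

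In KO, Rab12 stood at 41.1 and 57.9 CPM at time 0, below both WT plates, a difference that did not pass the test. Late, both KO plates lay below both WT plates with 9 of 12 ligands, CpG and Pam3Cys among them. The share of all genes with so many is not given here, and other members had similar runs. Rab3c lay below with 8 ligands, and Rab11b lay above, both KO plates over both WT plates, with 10. Against time 0, the late change of Rab12 in KO was above 0 with 10 of 12 ligands, and none passed. Its median was 0.57, and it ran from -0.70 with CpG to 1.20 with R848. With CpG, Rab12 was 33.7 and 26.2 CPM late in KO, against 112 and 113 CPM in WT. With Pam3Cys it was 44.8 and 63.1 CPM in KO, also below both WT plates. The added comparison of levels gave -2.10 with CpG (SE 0.44, adjusted p = 0.000251) and -1.70 with Pam3Cys (SE 0.42, adjusted p = 0.00294). Within KO, CpG stood below the mean of the other 11 ligands by -1.37 (SE 0.36, adjusted p = 0.0150; 2.07% of all genes called). The CpG level difference passed under all 12 alternatives, while that with Pam3Cys was lost with either WT plate left out (adjusted p up to 0.176) and the KO CpG contrast was lost without either WT plate, without KO replicate 2 and with 1 genotype in the fit (adjusted p up to 0.121). No difference in the Rab12 late change itself passed (CpG -1.53, SE 0.59, adjusted p = 0.458).

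A comparison matched for time, which sets each late ligand against the mean of the other 11 in its genotype and uses no time 0 well, called 8 members in at least 1 of 24 tests, against 19.6% of all genes. These were Rab11a, Rab12, Rab14, Rab18, Rab19, Rab5a, Rab8b and Rab9. The family's share was near that of all genes, and within it Rab9 stood out by its calls in both genotypes.

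Rab9, which returns mannose 6-phosphate receptors from late endosomes to the Golgi, was higher with Poly(I:C) and SeV than with the other ligands. Poly(I:C) is a synthetic double-stranded RNA. Rab9 lies at chrX:166457253-166479867. In WT it stood late at 86.3 and 115 CPM with SeV and at 94.0 and 67.5 CPM with Poly(I:C), against 15.2 to 53.5 CPM with the other 10 ligands. The plates of these 2 groups did not overlap the others.

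In KO, Rab9 stood late at 127 and 161 CPM with SeV and at 114 and 136 CPM with Poly(I:C). With the other 10 ligands the KO plates ranged from 21.8 CPM to 120 CPM, the highest being FLA on plate 1, so Poly(I:C) overlapped them and SeV did not. Matched for time, the WT differences were 1.73 with SeV (SE 0.30, adjusted p = 4.35e-06; 3.49% of all genes called) and 1.27 with Poly(I:C) (SE 0.30, adjusted p = 0.00220; 5.51%). The KO differences were 1.50 with SeV (SE 0.29, adjusted p = 5.83e-05; 4.12%) and 1.14 with Poly(I:C) (SE 0.30, adjusted p = 0.00491; 8.26%).

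Both KO calls of Rab9 held under all 13 alternatives tried (adjusted p up to 0.00475 for SeV and 0.0385 for Poly(I:C)). The WT call with SeV was lost without WT replicate 2 (1.38, adjusted p = 0.30), and that with Poly(I:C) without either WT plate (adjusted p up to 0.616). Against time 0, at 40.6 and 49.6 CPM in WT and 50.7 and 52.0 CPM in KO, Rab9 rose in KO by 1.76 with SeV (SE 0.45, adjusted p = 0.00634; 3.74% of all genes called) and by 1.43 with Poly(I:C) (SE 0.45, adjusted p = 0.0275; 7.95%). The first of these was lost without KO replicate 2 (adjusted p = 0.0966), and the second with any of the 4 plates left out or KO fitted alone (adjusted p up to 0.162). In WT the changes were 1.45 with SeV (SE 0.45, adjusted p = 0.0600) and 1.03 with Poly(I:C) (SE 0.45, adjusted p = 0.228). The difference between genotypes was 0.31 with SeV (SE 0.63) and 0.40 with Poly(I:C) (SE 0.63), neither past the threshold.

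With TDB, Rab9 stood late at 22.4 and 15.2 CPM in WT and at 21.8 and 23.7 CPM in KO. In KO this stood below the other ligands by -1.67 (SE 0.41, adjusted p = 0.00886; 1.77% of all genes called). The call was lost without KO replicate 2 or either WT plate (adjusted p up to 0.102). Pam3Cys in WT was also low, at 17.6 and 15.7 CPM. With R848 the added comparison put Rab9 higher in KO by 1.70 (SE 0.51, adjusted p = 0.0226), and without KO replicate 2, the shallowest late sum, it was 1.04 and did not pass (adjusted p = 0.277, and up to 0.591 without either WT plate).

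**Figure D3:**
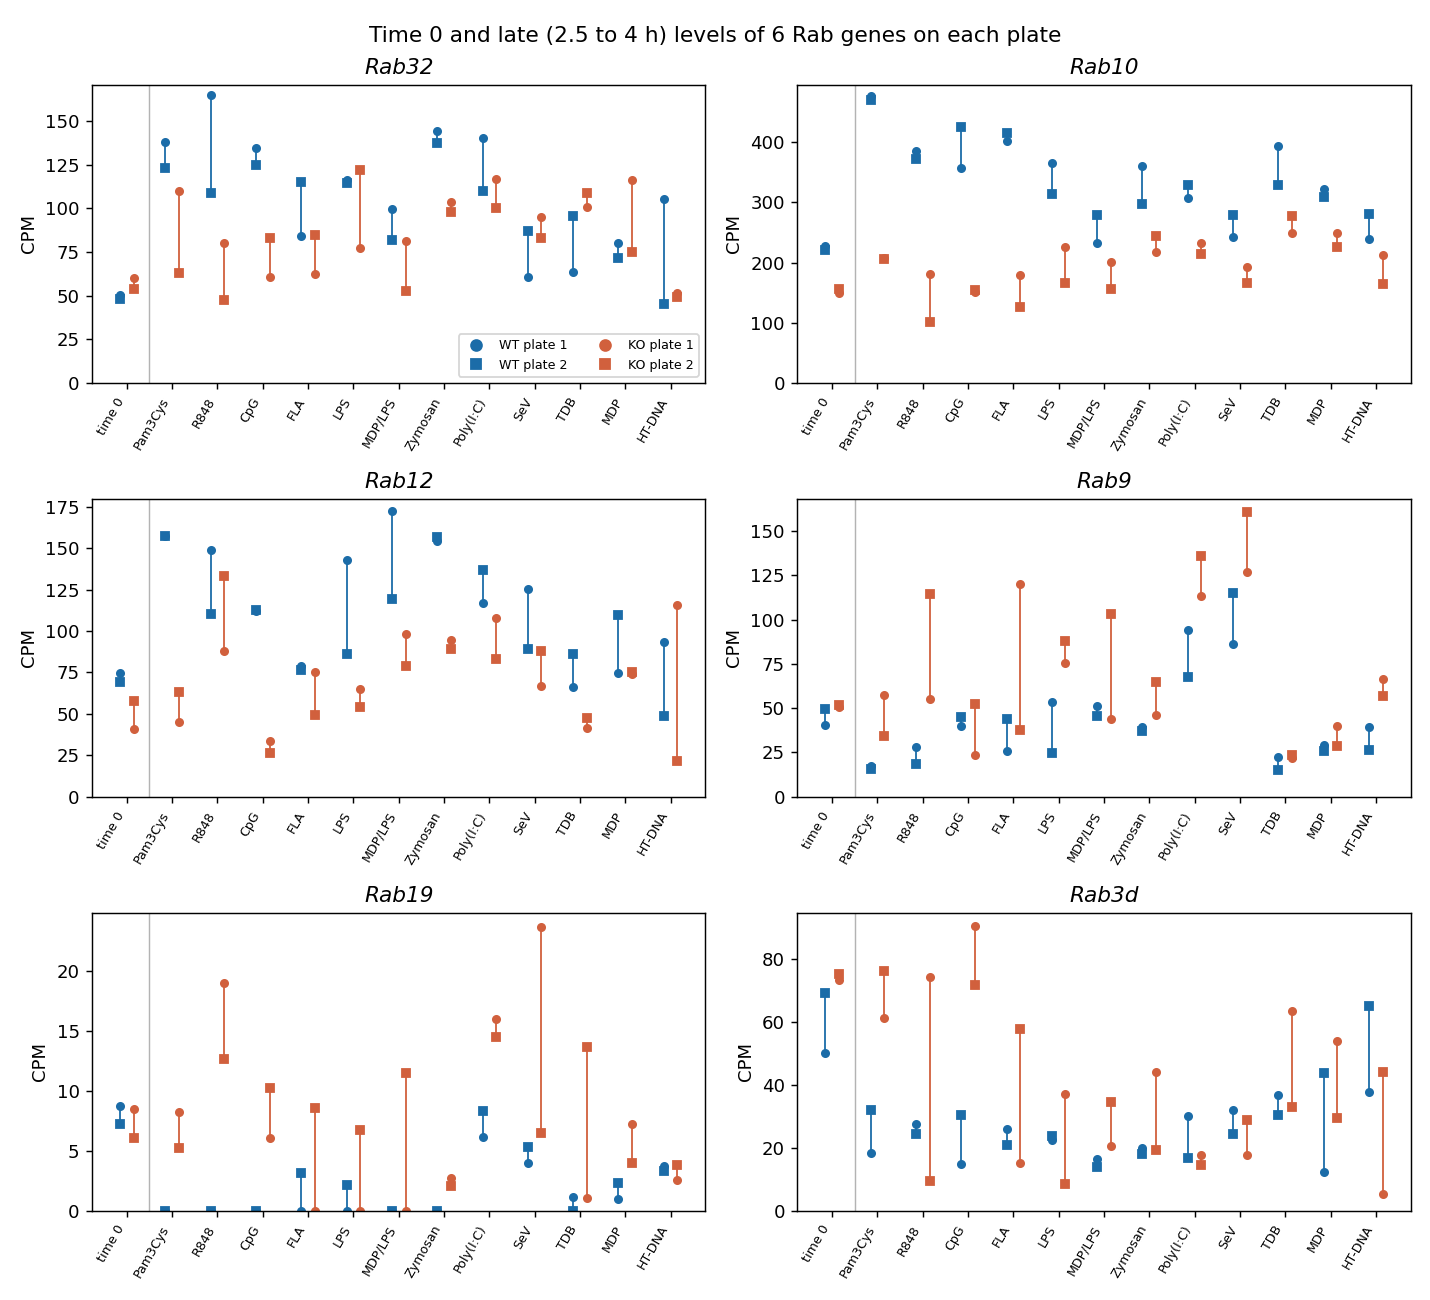
CPM at time 0 and late by ligand for 6 Rab genes, with 1 point per plate, WT in blue and KO in orange, and a line joining the plates of a group. Rab10 in WT lies above KO in every group, Rab9 has its highest plate with SeV in both genotypes, and Rab19 in WT is at 0 on both plates with 5 ligands.

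Rab19, a sparse member, fell in WT on average over the ligands, and its reads there were mostly from Poly(I:C) and SeV. It lies at chr6:39381175-39390380. At time 0 it had 43 and 23 counts on the WT plates (8.18 CPM over both) and 40 and 24 on the KO plates (7.41 CPM). Late in WT it had 17 counts in the 60 wells of 10 ligands (0.781 CPM) and 32 counts in the 12 wells of Poly(I:C) and SeV (6.14 CPM). Its late sums in WT were 0 on both plates with CpG, MDP/LPS, Pam3Cys, R848 and Zymosan.

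The mean late change of Rab19 in WT passed (adjusted p = 0.00117), and Poly(I:C) and SeV stood above the other ligands in WT (adjusted p = 0.000817 and 0.0225). Fitted folds are not given because they depend on how counts of 0 are treated. For Pam3Cys, R848 and CpG, pooled after the data had been seen, 0 of 6849611 late WT counts allows up to 0.438 CPM. With the floor of 3 counts taken over the group, Rab19 was at least 18.7-fold lower than at time 0 in this pool. This floor covers counting error only. Replicate wells varied by more than that (median chi-square per degree of freedom 4.62), so the fold is not a firm bound. Taken singly, the bounds were 7.08-fold with Pam3Cys, 6.41-fold with R848 and 5.18-fold with CpG. With FLA, which was not in the pool, Rab19 had 3 late counts in WT. All 3 planned calls were lost with either WT plate left out (adjusted p up to 0.435), and that with SeV also in the DESeq2 test and with the wells at 3 and 4 h alone.

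In KO, Rab19 had 199 counts in 72 late wells (8.65 CPM), of which 82 fell in the 12 wells of Poly(I:C) and SeV (15.5 CPM). With R848 it stood at 19.0 and 12.7 CPM, where WT had 0 on both plates (adjusted p = 0.0225 in the added comparison of levels, lost without either WT plate and with the wells at 3 and 4 h alone, up to 0.392). Over Pam3Cys, R848 and CpG together it had 59 counts in KO (9.95 CPM) and 0 in WT. A difference between genotypes of this pooled late change was also tested as an addition, and Rab19 was the only member called (adjusted p = 0.0372 in edgeR's test, with 1.31% of all genes called). The pool was chosen with these WT counts of 0 already seen, so the test is no independent support. The call was lost with any of the 4 plates left out and with the wells at 3 and 4 h alone. The Rab19 window printed above holds ISRE matches, and a link between them and these levels was not tested.

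Across ligands 1 by 1, the planned test of the difference in late change between genotypes called 0 of 42 members, against 0.918% of all genes, while 14 members had an unadjusted p under 0.05 with at least 1 ligand. That is 22 of 504 member tests (4.37%), against 3.19% of the tests of all genes. Pooled over all 12 ligands, an added test called 0 members and 0% of all genes, with Rab19 and Rab1b at an unadjusted p under 0.05. For Rab1b, which like Rab1 serves traffic to the Golgi, that difference was 1.01 (SE 0.50, unadjusted p = 0.0459 in edgeR's fit). The DESeq2 test called 0 members in the first of these comparisons and was not run for the second. The mean late change over the 12 ligands called 3 members in WT (3.48% of all genes): Rab10 and Rab32 rose and Rab19 fell. In KO it called 0 of 42 (1.25% of all genes), with Rab10, Rab32 and Rab3d at an unadjusted p under 0.05, and the DESeq2 test also called 0.

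Rab3d, which acts on secretory granules, fell in KO with Poly(I:C). It lies at chr9:21907491-21918192. At time 0 it stood at 50.2 and 69.5 CPM in WT and at 73.5 and 75.4 CPM in KO. With Poly(I:C) it stood late at 17.6 and 14.5 CPM in KO, below both time 0 plates, a change of -2.04 (SE 0.59, adjusted p = 0.0128). In WT its change was below 0 with 12 of 12 ligands, with a median of -1.10 and none past the threshold, and in KO above 0 with 1 of 12. The mean over the 12 ligands was -1.06 in WT (SE 0.36, adjusted p = 0.0902) and -0.95 in KO (SE 0.36, adjusted p = 0.312). The KO call with Poly(I:C) was lost without WT replicate 1 or 2 or without KO replicate 2 (adjusted p up to 0.0747).

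Rab40c, a member that pairs with a ubiquitin ligase, fell in WT with Poly(I:C). It lies at chr17:25882114-25919727. It had 99 and 51 counts at time 0 (20.2 and 16.1 CPM) and 5 and 0 counts late with Poly(I:C) (3.41 and 0 CPM), a fitted change of -3.14 (SE 1.01, adjusted p = 0.0464). Without WT replicate 1 the fitted change was -6.76 and without WT replicate 2 it was -2.29, and neither passed (adjusted p = 0.143 and 1). In KO the same ligand gave 12.8 and 2.56 CPM against 26.4 and 25.4 CPM at time 0, which did not pass. Gm26694 overlaps the last 500 bases of Rab40c on the other strand.

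In KO, 5 further members passed in the comparison matched for time. Rab8b, of exocytic traffic, stood at 983 and 513 CPM with SeV, against 358 and 438 CPM at time 0, and lay above the mean of the other ligands by 1.21 (SE 0.24, adjusted p = 0.000200). The second plate lay within the range of the other KO ligands, which reached 642 CPM, and without KO replicate 1 the difference was 0.53 (adjusted p = 0.239). Rab11a, of recycling endosomes, stood at 191 and 267 CPM with Poly(I:C), higher by 0.90 (SE 0.26, adjusted p = 0.0131), a call lost without KO replicate 2 (adjusted p = 0.290). Rab14, of early endosomes and phagosomes, stood at 270 and 205 CPM with Poly(I:C), lower by -0.65 (SE 0.21, adjusted p = 0.0321).

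Rab5a, which drives fusion of early endosomes, stood at 40.3 and 26.3 CPM with Pam3Cys in KO, lower than the other ligands by -1.22 (SE 0.35, adjusted p = 0.0439; 1.87% of all genes called). Rab18, of lipid droplets and the endoplasmic reticulum, stood at 148 and 117 CPM with FLA in KO, higher by 1.01 (SE 0.30, adjusted p = 0.0413; 2.92%). The calls of Rab14, Rab5a and Rab18 were each lost under 7 of 13 alternatives (adjusted p up to 0.193, 0.258 and 0.196), and Pp2d1 overlaps the last 500 bases of Rab5a. Rab18 was also higher in KO than in WT with R848 in the added comparison (1.42, SE 0.45, adjusted p = 0.0384), and without KO replicate 2 it was 0.70 (adjusted p = 0.440, and up to 0.559 without either WT plate).

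Over 48 comparisons of early and middle sums with time 0, 2 of 42 members passed with at least 1, against 6.29% of all genes. Both fell in the middle sum of LPS in KO, where 2.43% of all genes were called. Rab11b, of recycling endosomes, stood there at 46.4 and 45.9 CPM against 116 and 126 CPM at time 0, a change of -1.25 (SE 0.37, adjusted p = 0.0469). By the late sum it was back at 102 and 93.0 CPM. Its call was lost under 11 of 13 alternatives (adjusted p up to 0.292).

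Rab27b, which serves release of granules and exosomes, had 0 counts of 693877 in the same middle sums of KO, which allows up to 4.32 CPM over both plates, against 22.4 and 22.6 CPM at time 0. That is at least 5.20-fold lower if only counting error is allowed for (adjusted p = 0.0244 in edgeR's test). Late with LPS it had 9 and 0 counts on the KO plates. The call was lost with any 1 plate left out and with KO groups fitted alone (adjusted p up to 0.169).

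Wells of all 12 ligands were also summed by plate and time. Rab32 in WT stood at 50.2 and 48.3 CPM at 0 h, at 70.1 and 60.8 CPM at 1 h, at 107 and 76.5 CPM at 2 h and at 117 and 117 CPM at 4 h. In KO it went from 60.3 and 53.6 CPM at 0 h to 104 and 95.5 CPM at 4 h. So Rab32 climbed on all 4 plates, and the WT plates were above the KO plates at 4 h.

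Rab10 in WT stood at 244 and 208 CPM at 1 h, 292 and 291 CPM at 2 h and 358 and 382 CPM at 4 h, while the KO plates ended at 212 and 181 CPM. Rab3d went the other way, from 50.2 and 69.5 CPM to 23.4 and 31.5 CPM in WT and from 73.5 and 75.4 CPM to 37.8 and 41.9 CPM in KO. These sums over ligands are a description with no test.

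For Rab9, wells of Poly(I:C) and SeV were summed after their values had been seen. The WT plates stood at 56.9 and 54.4 CPM at 0 h and at 110 and 115 CPM at 4 h. The KO plates stood at 47.7 and 56.5 CPM at 0 h and at 131 and 224 CPM at 4 h. On all 4 plates the value at 2.5 h was above that at 2 h.

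**Figure D4:**
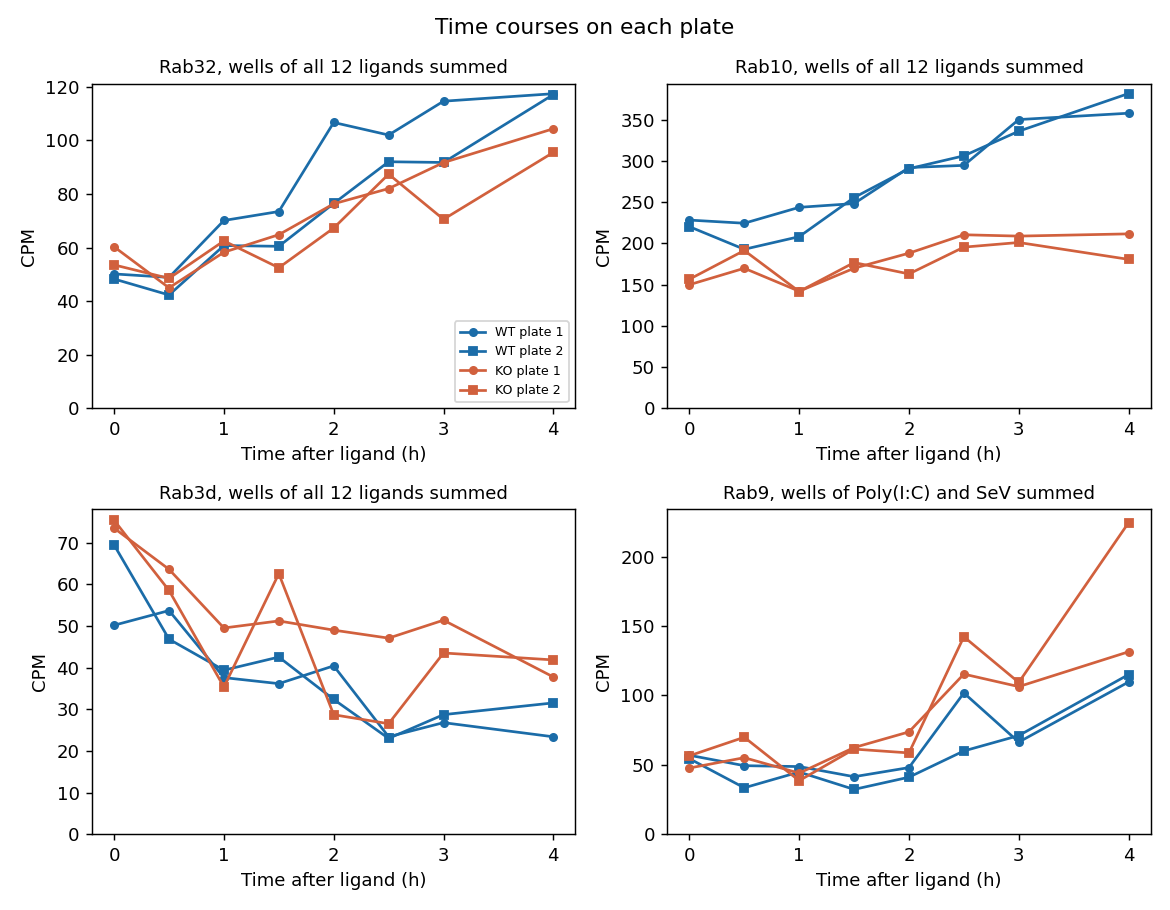
CPM against hours after ligand on each plate (blue WT, orange KO) for Rab32, Rab10 and Rab3d with the wells of all 12 ligands summed, and for Rab9 with Poly(I:C) and SeV summed. Both KO plates of Rab10 lie below both WT plates at every time, the nearest at 0.5 h (191 and 193 CPM), and Rab9 is higher at 2.5 h than at 2 h on each plate.

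Genes that regulate or serve the Rab proteins were read from lists of known names. Of 8 genes for prenylation and recycling of Rab proteins, 0 passed late with any ligand in either genotype in edgeR's test, while 1 in WT and 4 in KO had an unadjusted p under 0.05 with at least 1 ligand (median late change -0.04 in WT and -0.19 in KO, against -0.05 and -0.06 over all genes). Rabggta, a subunit of the enzyme that prenylates Rab proteins, passed in KO in the test that all late groups and time 0 share 1 level (adjusted p = 0.0449). Beside the counts that follow, 10.3% of all genes passed late with at least 1 ligand in WT (6.94% up, 3.39% down). In KO it was 10.9% (6.29% up, 4.59% down). Among exchange factors and GTPase activators more genes fell than rose, the reverse of all genes, and this was not tested. Of 28 exchange factors tested, 1 rose and 3 fell in WT and 1 rose and 2 fell in KO. Rin2, an exchange factor for Rab5, rose from 180 and 183 CPM at time 0 to 453 and 463 CPM late with SeV in WT (log2 change 1.64, SE 0.31, adjusted p = 4.07e-05), and in KO from 137 and 144 CPM to 297 and 313 CPM (1.40, adjusted p = 0.000651). Rab3il1 fell in WT with 6 ligands, by -2.24 with Poly(I:C) (SE 0.42, adjusted p = 3.29e-05).

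Of 34 GTPase activators tested, 1 rose and 3 fell in each genotype (10.3% of all genes passed in WT and 10.9% in KO), with a list median of -0.25 in WT and -0.25 in KO against -0.05 and -0.06 over all genes. Tbc1d1, which acts on Rab10 among others, rose in WT with MDP/LPS (1.67, SE 0.45, adjusted p = 0.00683) and in KO (1.88, SE 0.45, adjusted p = 0.00272). Its relative Tbc1d4 fell in WT with Poly(I:C) by -2.55 (SE 0.80, adjusted p = 0.0376).

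Of 36 effectors tested, 3 rose and 2 fell in WT and 2 rose and 1 fell in KO, again beside 10.3% and 10.9% of all genes. Appl1, an adaptor that binds Rab5 on endosomes, rose from 125 and 135 CPM at time 0 to 459 and 474 CPM late with Pam3Cys in WT (1.94, SE 0.32, adjusted p = 5.56e-06), and stood at 70.5 and 77.2 CPM with the same ligand in KO, against 87.3 and 92.9 CPM at time 0. The difference between genotypes passed for Appl1 with Pam3Cys (-2.26, SE 0.46, adjusted p = 0.00158) and CpG (-2.12, SE 0.46, adjusted p = 0.00526). Rab11fip1, which binds Rab11, rose with Zymosan by 1.93 in WT (adjusted p = 0.0207) and by 2.31 in KO (adjusted p = 0.00453). Plekhm1, which links Rab7 to lysosome fusion, fell with LPS by -2.74 in WT (adjusted p = 0.000158) and by -2.15 in KO (adjusted p = 0.00550).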

How the data were processed

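The table the authors deposited holds raw counts for each gene in each well. The submitters' processing notes name BWA and mm10. The aligner's version, the counter, the annotation, the use of strand and the handling of molecular tags were not given in the sources used here. Wells were mapped by their labels, and 0 columns belonged to other samples. The members, role lists, gene lists and motifs were chosen with earlier results of these data known. Members named are those past the threshold in any comparison, the leading member of each role, the 5 with the highest CPM and those with no count. Other members named, such as Rab7, Rab20, Rab1b and Rab42, were chosen after their values were seen. Counts were summed per plate and tested in edgeR 4.0.16 (R 4.3.3; TMM, filterByExpr with a minimum count of 10, robust quasi-likelihood F-test) in 1 fit of all 74 groups, with Benjamini-Hochberg adjustment over the 10562 genes of each comparison and a threshold of 0.05. The test was checked on simulated counts, where it missed most of the changes at both sizes tried, so a member that did not pass may still have changed. DESeq2 1.42.0 was an alternative. The late level between genotypes and the pooled genotype differences were added after the data had been seen. No pair of replicate wells was identical (0 of 192), and the lowest chi-square per degree of freedom between them was 2.96. Replicate numbers mark plates, per the labels, so sums are paired only within a plate, and WT and KO plates of 1 number are different plates. Deviations of sums from 1 plate correlated with a median r of 0.0103 in WT and 0.0148 in KO (666 pairs each). Floors and intervals cover counting error only.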

Additional observations from a re-analysis of the deposited data

How the results depend on the processing

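Over the 48 member and comparison pairs that passed, 479 of 613 alternative values kept their call, 134 lost it and 0 changed sign. With single wells in place of plate sums, which treats wells as replicates, the counts were 1 at time 0, 13 late in WT, 13 late in KO, 10 and 14 for any late difference in WT and KO, 9 early or middle, 5 for the genotype difference, 7 and 5 for the mean late change in WT and KO, 18 matched for time and 12 for the late level. With the DESeq2 test, 6 members passed late in KO, 8 for any late difference in KO and 4 early or middle. With 1 genotype in the fit, 9 passed late in WT, 2 for any late difference in KO, 4 early or middle, 5 for the mean late change in WT and 14 matched for time. With the wells at 3 and 4 h only, 5 passed late in KO. Early or middle, 1 passed with no low-count filter, 1 with shallow wells left out and 1 without Rn45s. Leaving out each plate in turn gave 0 to 10 late in WT, 1 to 5 late in KO, 0 to 6 and 2 to 9 for any late difference in WT and KO, 0 to 8 early or middle, 0 to 2 for the genotype difference, 0 to 5 for the mean late change in WT, 3 to 20 matched for time and 2 to 13 for the late level. The cause was not tested. For none of the fits in this paragraph is the share of all genes called given, so these counts are not results about the family. With plate as a replicate block, 6 members passed late in KO in place of 2, and the block moved no other count by more than 1.5 times and ended none of the calls named. Early and middle sums hold 198344 to 1048987 counts, which limits what could be detected for sparse members.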
